A study of Mus musculus with 13 samples.

Results

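The cyclins, cyclin-dependent kinases (CDKs), CDK inhibitors, RB and E2F proteins, p53, MDM2 and MYC form the regulatory core of the cell cycle, and 42 mouse genes of this core were followed in the fat and prostate tumours of TRAMP mice. The genes were chosen by symbol, from their known roles, and all 42 were found among the 23360 entries of the fat table and the 24421 entries of the tumour table. RNA was sequenced from 13 libraries of C57BL/6 mice aged 30 to 35 weeks on a regular diet. All the mice carried TRAMP, a transgene that expresses the SV40 T antigens in prostate epithelium from a probasin promoter, and floxed Sqstm1, the gene of the autophagy receptor p62. The wild-type groups (TRAMP+;p62f/f) held 3 libraries of epididymal fat and 4 of prostate tumour, and the knockout groups (TRAMP+;p62aP2KO) held 3 of each. The label aP2 names the gene of the fatty acid binding protein FABP4, which adipocytes express strongly and macrophages also express, so the deletion was aimed at fat and not at the tumour epithelium.

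D-type cyclins with CDK4 or CDK6 begin the phosphorylation of RB, cyclin E and cyclin A with CDK2 complete it, and the E2F factors thus released switch on the genes of DNA replication. Cyclin B with CDK1 then drives mitosis, from genes that are held off in resting cells by E2F4 or E2F5 with the RB relatives p107 and p130, and switched on by MYBL2 and FOXM1. The SV40 large T antigen binds RB, p107, p130 and p53 and disables them, so that TRAMP epithelium divides without the usual restraint, and the p16 inhibitor is commonly abundant in cells that have lost RB function.

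Tumour libraries held 17810397 to 32475051 counted reads, and tumour values are given as CPM (counts scaled to library size with TMM). Fat values are given as FPKM (reads scaled by library and gene length), a unit that was inferred because the deposited values name none. Libraries are named by genotype and replicate number as labelled, and values follow the replicate order. Sqstm1 itself stood at 73.6, 1.77 and 84.2 FPKM in wild-type fat and 4.53, 54.5 and 2.58 FPKM in knockout fat, and at 173, 5.64, 167 and 151 CPM in wild-type tumours and 8.97, 176 and 19.5 CPM in knockout tumours. In both tissues the level of Sqstm1 was therefore opposite to the label in wild type 2 and knockout 2, and the main results are given with and without them. The adipocyte gene Adipoq stood at 1632 to 2982 FPKM in every fat library. Pbsn, the prostate secretory gene whose promoter drives the transgene, was listed at 0 in all fat libraries, and in tumours it stood at 4000.1, 4285, 9533 and 58.8 CPM in wild type and 2126, 89.3 and 293 CPM in knockout, so that the groups overlapped. The transgene was not analysed here. The labels do not say that libraries came from separate mice, so p-values measure only the spread between libraries, which may be partly technical. Bulk RNA cannot tell fewer cells of a type from less RNA per cell.

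In the tumours labelled knockout, the genes of cyclins E, A, B and F, CDK1, the phosphatases CDC25A and CDC25C, p107 and the atypical E2Fs lay below their wild-type levels in every library, by 1.64-fold (Cdc25a) to 9.25-fold (Cdc25c). Cdk1, the mitotic kinase, averaged 113 ± 46.1 CPM over the 4 wild-type tumours and 25.8 ± 11.2 CPM over the 3 knockout tumours (± SD). Ccnb2, cyclin B2, averaged 51.3 ± 12.3 and 9.38 ± 6.46 CPM. The genes of the D-type cyclins, p27, p53 and MDM2 had log2 fold changes between -0.43 (Ccnd2) and 0.23 (Mdm2). Across the 42 genes the median log2 fold change was -0.73, against -0.08 over all 15117 tumour genes tested, and 32 of 42 were lower, against 56.8% of all genes.

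By edgeR's quasi-likelihood test no gene was called in the tumours at an adjusted p under 0.05, so 0 of 42 regulators were called beside 0.0% of all genes, and the smallest adjusted p was 0.193. At an unadjusted p under 0.05, 22 of the 42 passed, against 12.4% of all genes: 21 were lower, against 6.26%, and 1, Cdkn1a, was higher, against 6.17%. For 19 genes every knockout tumour lay below every wild-type tumour, against 7.05% of all genes, and for 0 genes every knockout tumour lay above, against 6.69%. DESeq2 on the same counts called 17 of the 42, all lower, against 5.16% of all genes called and 2.79% called lower. Without both tumours numbered 2, edgeR passed 19 at an unadjusted p, where the share of all genes was not counted, and called 0. DESeq2 then called 16, all lower and all among the 17, against 2.61% called and 2.13% called lower. The gene it no longer called was Cdc25a.

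Summed markers of several cell types also varied between the tumours. Summed over 6 markers of dividing cells, the level was 674 to 2135 CPM in wild-type tumours and 44.5 to 231 CPM in knockout tumours. Summed fibroblast markers ranged from 830 to 1887 CPM in wild type and from 1803 to 10360 CPM in knockout, macrophage markers from 175 to 196 and from 277 to 1557 CPM, and endothelial markers from 52.7 to 147 and from 154 to 298 CPM. The summed prostate luminal markers ranged from 2717 to 13225 CPM and from 2351 to 5161 CPM, and overlapped. Wild-type tumour 1 held 1297 CPM of summed neuroendocrine markers, where the other 6 tumours held 49.1 to 76.9, and it was the highest library for 22 of the 42 regulators. For how many of all genes it was the highest was not counted. Without wild-type tumour 1, 21 genes passed at an unadjusted p by edgeR. Knockout tumour 1 held 46982 CPM of summed seminal vesicle and epididymis markers, where the other knockout tumours held 8.13 and 205 CPM and wild-type tumours 18.3 to 3813 CPM. Without it 19 genes passed. The share of all genes passing was not counted without wild-type tumour 1 or without knockout tumour 1. The part of these markers in the results was not tested.

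**Figure D1:**
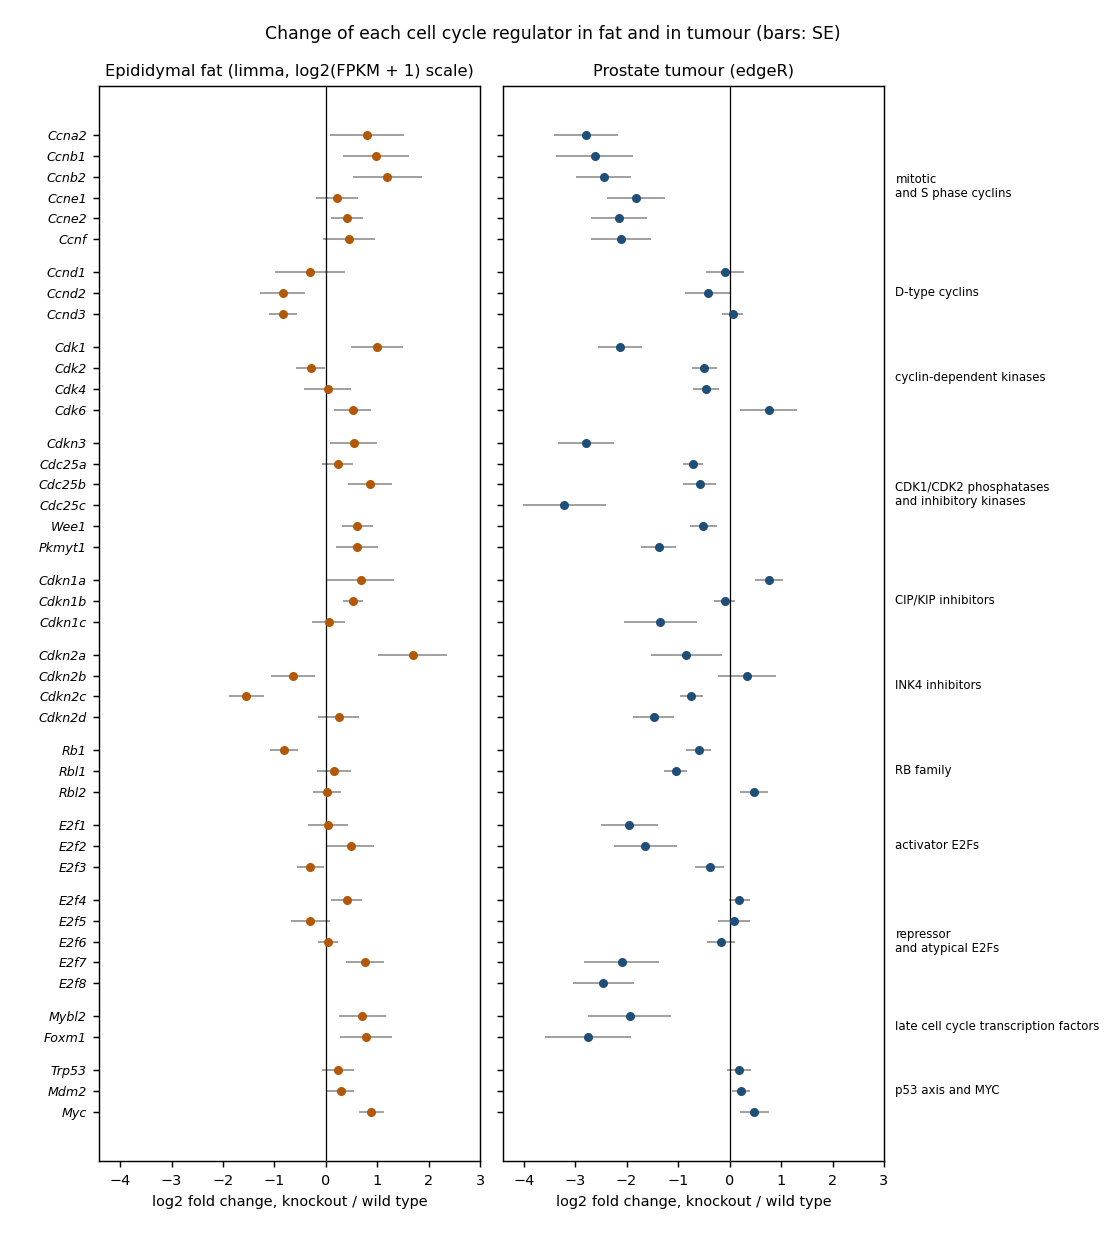
Log2 fold change of each of the 42 genes (knockout over wild type, bars: SE), by role, in fat (left, limma on log2(FPKM + 1)) and tumour (right, edgeR, SE derived from the F statistic). Cdc25c and E2f8 were too low to be tested in fat. In tumours 32 of 42 points lie below 0, with Cdc25c at -3.21, Cdkn3 and Ccna2 at -2.79 each, and in fat 31 of 40 lie above 0.

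Promoters are shown for the kinase, cyclin and phosphatase that led the tumour comparison, for p107 and E2F7, which act on E2F sites themselves, and for the inhibitors Cdkn2a and Cdkn1a, which behaved differently. Each runs from 250 bases before to 50 bases after the start that RefSeq lists (GRCm38.p6, the mm10 assembly), on the gene's strand. Capitals mark matches on either strand to the E2F words TTTCCCGC, TTTGGCGC, TTTCGCGC and TTTGCCGC, to the CHR element (TTTGAA or TTCGAA) of mitotic genes, to CCAAT, the site of NF-Y, or to the p53 decamer consensus.
Cdk1: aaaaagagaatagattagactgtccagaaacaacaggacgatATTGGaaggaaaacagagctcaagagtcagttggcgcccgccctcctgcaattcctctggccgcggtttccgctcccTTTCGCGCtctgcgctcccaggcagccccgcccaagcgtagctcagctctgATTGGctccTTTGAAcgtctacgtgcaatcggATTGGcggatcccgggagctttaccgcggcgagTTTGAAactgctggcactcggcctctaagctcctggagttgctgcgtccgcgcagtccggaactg
Ccnb2: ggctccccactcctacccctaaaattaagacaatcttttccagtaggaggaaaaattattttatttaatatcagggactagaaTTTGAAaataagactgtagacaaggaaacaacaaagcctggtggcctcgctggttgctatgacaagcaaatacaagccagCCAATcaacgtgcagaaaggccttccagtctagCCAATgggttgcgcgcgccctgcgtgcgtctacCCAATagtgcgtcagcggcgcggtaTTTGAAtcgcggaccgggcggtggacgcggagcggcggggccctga
Cdkn3: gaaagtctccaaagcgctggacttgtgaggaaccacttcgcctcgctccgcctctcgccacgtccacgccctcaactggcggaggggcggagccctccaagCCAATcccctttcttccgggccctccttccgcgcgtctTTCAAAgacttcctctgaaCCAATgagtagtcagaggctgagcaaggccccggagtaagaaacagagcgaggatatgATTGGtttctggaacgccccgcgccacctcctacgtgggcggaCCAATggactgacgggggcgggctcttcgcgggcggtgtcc
E2f7: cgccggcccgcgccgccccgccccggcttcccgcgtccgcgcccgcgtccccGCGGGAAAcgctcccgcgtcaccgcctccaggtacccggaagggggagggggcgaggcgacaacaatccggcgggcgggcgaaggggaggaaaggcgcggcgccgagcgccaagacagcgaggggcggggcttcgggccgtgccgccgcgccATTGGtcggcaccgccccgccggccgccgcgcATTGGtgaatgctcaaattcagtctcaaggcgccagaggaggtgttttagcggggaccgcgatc
Rbl1: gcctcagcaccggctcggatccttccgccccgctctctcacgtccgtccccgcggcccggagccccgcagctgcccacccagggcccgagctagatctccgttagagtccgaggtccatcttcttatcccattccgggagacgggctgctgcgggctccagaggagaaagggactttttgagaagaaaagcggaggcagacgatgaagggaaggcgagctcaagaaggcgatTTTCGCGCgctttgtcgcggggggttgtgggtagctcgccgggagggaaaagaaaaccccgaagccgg
Cdkn2a: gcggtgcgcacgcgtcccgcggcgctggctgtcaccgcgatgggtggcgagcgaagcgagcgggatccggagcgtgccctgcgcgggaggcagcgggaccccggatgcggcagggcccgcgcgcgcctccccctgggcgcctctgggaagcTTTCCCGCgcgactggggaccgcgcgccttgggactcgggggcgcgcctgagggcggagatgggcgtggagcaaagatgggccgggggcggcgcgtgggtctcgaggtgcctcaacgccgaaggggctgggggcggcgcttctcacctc
Cdkn1a: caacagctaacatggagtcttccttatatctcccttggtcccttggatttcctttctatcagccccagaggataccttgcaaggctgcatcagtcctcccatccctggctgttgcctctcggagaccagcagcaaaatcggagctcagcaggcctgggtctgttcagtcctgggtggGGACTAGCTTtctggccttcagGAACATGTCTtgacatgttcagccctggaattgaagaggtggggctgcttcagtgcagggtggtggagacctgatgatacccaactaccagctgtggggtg
In the printed promoters no match overlapped a match to another motif. Cdk1 (chr10:69352863-69353162, minus strand) held an E2F word at position -131 from the start, CHR words at -71 and -15 and 3 CCAAT boxes. Ccnb2 (chr9:70421505-70421804, minus strand) held CHR words at -167 and 4 and 3 CCAAT boxes, and Cdkn3 (chr14:46760291-46760590, plus strand) 1 CHR word at -111 and 4 CCAAT boxes. E2f7 (chr10:110745189-110745488, plus strand) held an E2F word at -198, Rbl1 (chr2:157204485-157204784, minus strand) at -18 and Cdkn2a (chr4:89294570-89294869, minus strand) at -99. Cdkn1a (chr17:29090729-29091028, plus strand) held 2 p53 decamers, at -73 and -51. Only promoters with an E2F, CHR or p53 match were printed. A downstream Cdkn2a promoter (chr4:89282143-89282442) held 1 CCAAT box and no E2F word. A downstream Cdkn1a promoter (chr17:29093519-29093818) held no match. Of the 42 genes, 29 had a listed promoter, 35 promoters in all. An E2F word was found in 22.9% of these 35 and in 2.26% of all 32851 listed promoters, a CHR word in 28.6% and 19.2%, CCAAT in 57.1% and 37.4%, and a p53 decamer in 11.4% and 8.36%. CHR and CCAAT occurred together in 22.9% and 7.52%. These are letter matches and say nothing about binding.

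Of the cyclins of S phase and mitosis, Ccna2, cyclin A2, stood at 262, 104, 110.1 and 104 CPM in wild-type tumours and 18.1, 37.5 and 7.28 CPM in knockout tumours. All knockout tumours lay below all wild-type tumours, and wild-type tumour 1 stood far above the rest (log2 fold change -2.79, SE 0.63). The B cyclins bind CDK1. Ccnb1 stood at 86.5, 25.01, 16.9 and 24.1 CPM in wild-type tumours and 5.59, 10.6 and 2.37 CPM in knockout tumours. Ccnb2 was at 53.4, 38.4, 67.3 and 46.3 CPM in wild-type tumours and 9.12, 15.96 and 3.05 CPM in knockout tumours. Neither overlapped between groups, with log2 fold changes of -2.62, SE 0.75 and -2.45, SE 0.54. The E cyclins open S phase with CDK2. Ccne1 stood at 31.7, 13.6, 15.9 and 12.1 CPM in wild-type tumours and 4.13, 8.88 and 2.58 CPM in knockout tumours. Ccne2 was at 84.8, 46.5, 123 and 42.9 CPM in wild-type tumours and 11.1, 28.9 and 9.94 CPM in knockout tumours. Both were lower in every knockout tumour (log2 fold change -1.81, SE 0.56 and -2.15, SE 0.54), and so was Ccnf, an F-box protein related to the cyclins, at 12.5 to 43.0 and 3.48 to 10.2 CPM. In all 6 of these genes knockout tumour 2 was the highest knockout, and edgeR adjusted p lay between 0.193 and 0.256. Without both libraries numbered 2 the log2 fold change of Ccna2 was -3.64 and that of Ccnb2 -3.19.

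In fat all 6 of these cyclins had positive fold changes, carried by knockout fat 1 and 2. Ccna2 stood at 3.91, 6.43 and 5.89 FPKM in wild-type fat and 19.9, 19.7 and 2.07 FPKM in knockout fat, so that knockout fat 3 was the lowest of the 6 libraries. Ccnb1 stood at 0.347, 1.13 and 0.0842 FPKM in wild-type fat and 4.35, 2.94 and 0.0997 FPKM in knockout fat. Ccnb2 was at 1.096, 3.81 and 0 FPKM in wild-type fat and 6.08, 6.09 and 1.42 FPKM in knockout fat. The groups overlapped for each of the 6 genes, and log2 fold changes, on the log2(FPKM + 1) scale that understates low genes, ran from 0.21 for Ccne1 to 1.20 for Ccnb2 (limma adjusted p 0.434 to 0.837). Ccne1 stood at 1.67, 2.82 and 0.7104 FPKM in wild-type fat and 2.02, 3.07 and 1.202 FPKM in knockout fat. Ccne2 was at 5.14, 3.297 and 5.26 FPKM in wild-type fat and 8.25, 7.48 and 3.91 FPKM in knockout fat. These low FPKM values fall on whole-read steps, and for Ccnb1 they correspond to 4, 15 and 1 reads in wild type and to 52, 97 and 1 in knockout, so that single reads set its values in wild-type fat 3 and knockout fat 3. In the other fat libraries 1 read was worth 2.48 to 3.29 times as many FPKM as in knockout fat 2. Its read numbers therefore cannot be compared directly with theirs. Without the libraries numbered 2 the fat log2 fold change of Ccna2 was 0.46 and that of Cdk1 1.19.

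**Figure D2:**
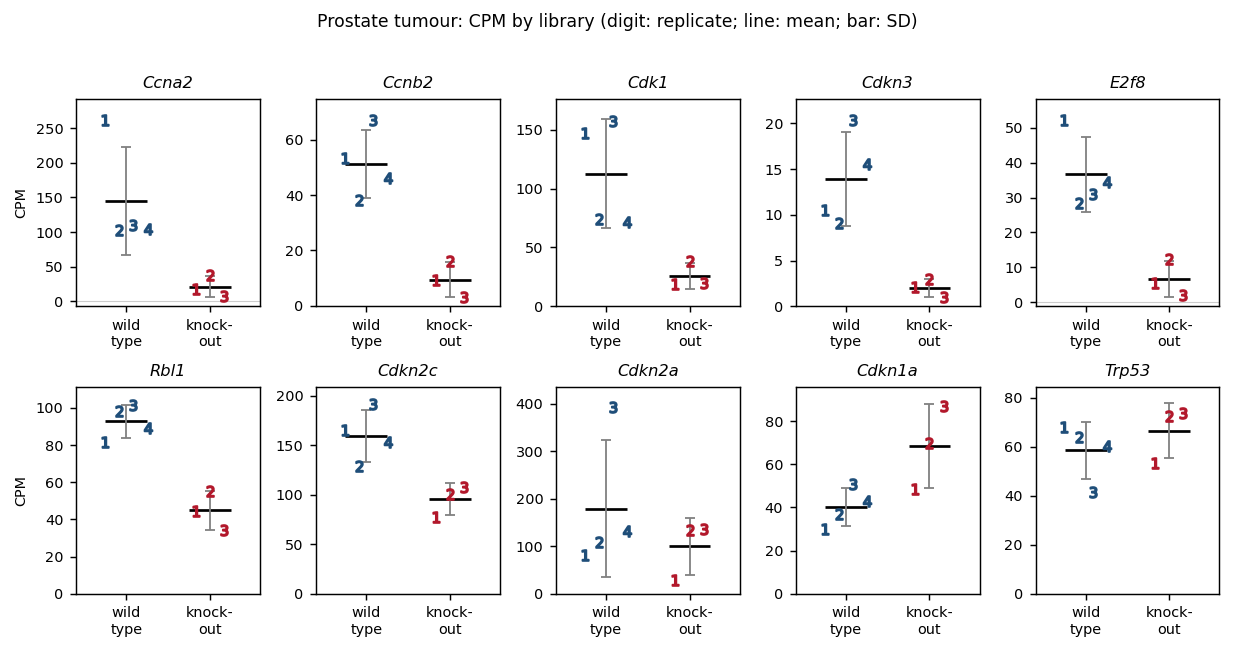
CPM of 10 genes in each prostate tumour (vertical axes start at or just below 0, digit: replicate number, line: mean, bar: SD, wild type n = 4, knockout n = 3). Ccna2, Ccnb2, Cdk1, Cdkn3, E2f8, Rbl1 and Cdkn2c do not overlap between groups, while Cdkn2a, Cdkn1a and Trp53 do.

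The catalytic partners divided. Cdk1 stood at 147, 73.9, 158 and 71.6 CPM in wild-type tumours and 19.1, 38.7 and 19.5 CPM in knockout tumours, with every knockout tumour lower (log2 fold change -2.12, SE 0.43, edgeR adjusted p = 0.193). Cdk4, the partner of D-type cyclins, stood at 214, 166, 205 and 156 CPM in wild-type tumours and 94.7, 165 and 145 CPM in knockout tumours and overlapped (log2 fold change -0.46, SE 0.25). Cdk2, the partner of cyclins E and A, ranged from 61.8 to 99.5 CPM and from 46.3 to 73.3 CPM, and Cdk6 from 0.637 to 1.46 and from 0.931 to 2.47 CPM. Per kilobase of exon, and among genes with a value above 0, Cdk6 stood at the 11.5 percentile of mean level in wild-type tumours and Cdk4 at the 95.7 percentile. In wild-type fat the same percentiles were 63.3 for Cdk6 and 85.0 for Cdk4.

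In fat, Cdk1 was at 0.967, 1.38 and 0.06697 FPKM in wild-type fat and 4.59, 2.63 and 0.952 FPKM in knockout fat, or 14, 23 and 1 reads against 69, 109 and 12. A read stood for fewer FPKM in knockout fat 2 than in the other fat libraries. Knockout fat 1 and 2 lay above all wild-type fat, and knockout fat 3 within its range (log2 fold change 1.00, SE 0.51, limma adjusted p = 0.399). Cdk4 stood at 28.7, 17.6 and 39.4 FPKM in wild-type fat and 44.7, 32.4 and 14.6 FPKM in knockout fat, with both the highest and the lowest value in knockout fat (log2 fold change 0.03, SE 0.46). Cdk6 ranged from 7.69 to 13.4 FPKM and from 8.83 to 20.8 FPKM, and Cdk2 from 7.68 to 15.6 and from 8.24 to 10.4 FPKM.

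The phosphatases and kinases that set CDK activity leaned lower in tumours for all 6 genes. Cdkn3, which removes the activating phosphate of CDK2, stood at 10.6, 9.16, 20.4 and 15.6 CPM in wild-type tumours and 2.07, 2.96 and 0.973 CPM in knockout tumours, and had the smallest p of the 42 (log2 fold change -2.79, SE 0.54, edgeR adjusted p = 0.193). The CDC25 phosphatases remove the inhibitory phosphates of CDKs. Cdc25a stood at 55.1, 49.97, 48.8 and 49.8 CPM in wild-type tumours and 30.5, 35.2 and 27.4 CPM in knockout tumours. Cdc25c was at 60.9, 15.1, 18.3 and 17.98 CPM in wild-type tumours and 3.38, 4.96 and 0.719 CPM in knockout tumours. The groups were apart for both, narrowly spread for Cdc25a (log2 fold change -0.71, SE 0.19) and with wild-type tumour 1 far above for Cdc25c (log2 fold change -3.21, SE 0.81). Cdc25b stood at 66.95, 46.8, 28.5 and 53.2 CPM in wild-type tumours and 35.5, 38.02 and 24.7 CPM in knockout tumours and overlapped (log2 fold change -0.58, SE 0.32). The opposing kinases are PKMYT1 and WEE1. Pkmyt1 stood at 52.1, 38.6, 44.8 and 44.5 CPM in wild-type tumours and 11.4, 26.7 and 13.7 CPM in knockout tumours, apart between groups (log2 fold change -1.38, SE 0.34). Wee1 was at 134, 135, 78.3 and 106 CPM in wild-type tumours and 94.2, 60.4 and 84.6 CPM in knockout tumours, which overlapped (log2 fold change -0.51, SE 0.26).

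In fat the 5 of these genes that could be tested had positive fold changes. Cdc25b stood at 7.47, 3.33 and 2.78 FPKM in wild-type fat and 12.2, 9.902 and 4.68 FPKM in knockout fat. Wee1 was at 2.23, 4.86 and 5.04 FPKM in wild-type fat and 6.11, 6.48 and 6.62 FPKM in knockout fat. Cdc25a was at 2.41, 2.65 and 2.86 FPKM in wild-type fat and 2.84, 5.04 and 2.34 FPKM in knockout fat. For Wee1 every knockout library lay above every wild-type library (log2 fold change 0.61, SE 0.30), while Cdc25b (log2 fold change 0.85, SE 0.43) and Cdc25a overlapped. Cdkn3 stood at 1.61, 2.79 and 0.935 FPKM in wild-type fat and 4.65, 3.93 and 1.11 FPKM in knockout fat. Pkmyt1 was at 2.68, 2.12 and 1.26 FPKM in wild-type fat and 5.84, 4.13 and 1.61 FPKM in knockout fat. Both were highest in knockout fat 1 and 2, and knockout fat 3 lay within the wild-type range. Cdc25c was not tested, at 0.317, 0.0917 and 0 FPKM in wild-type fat and 0.305, 0.996 and 0 FPKM in knockout fat. Limma adjusted p of the 5 lay between 0.379 and 0.744.

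**Figure D3:**
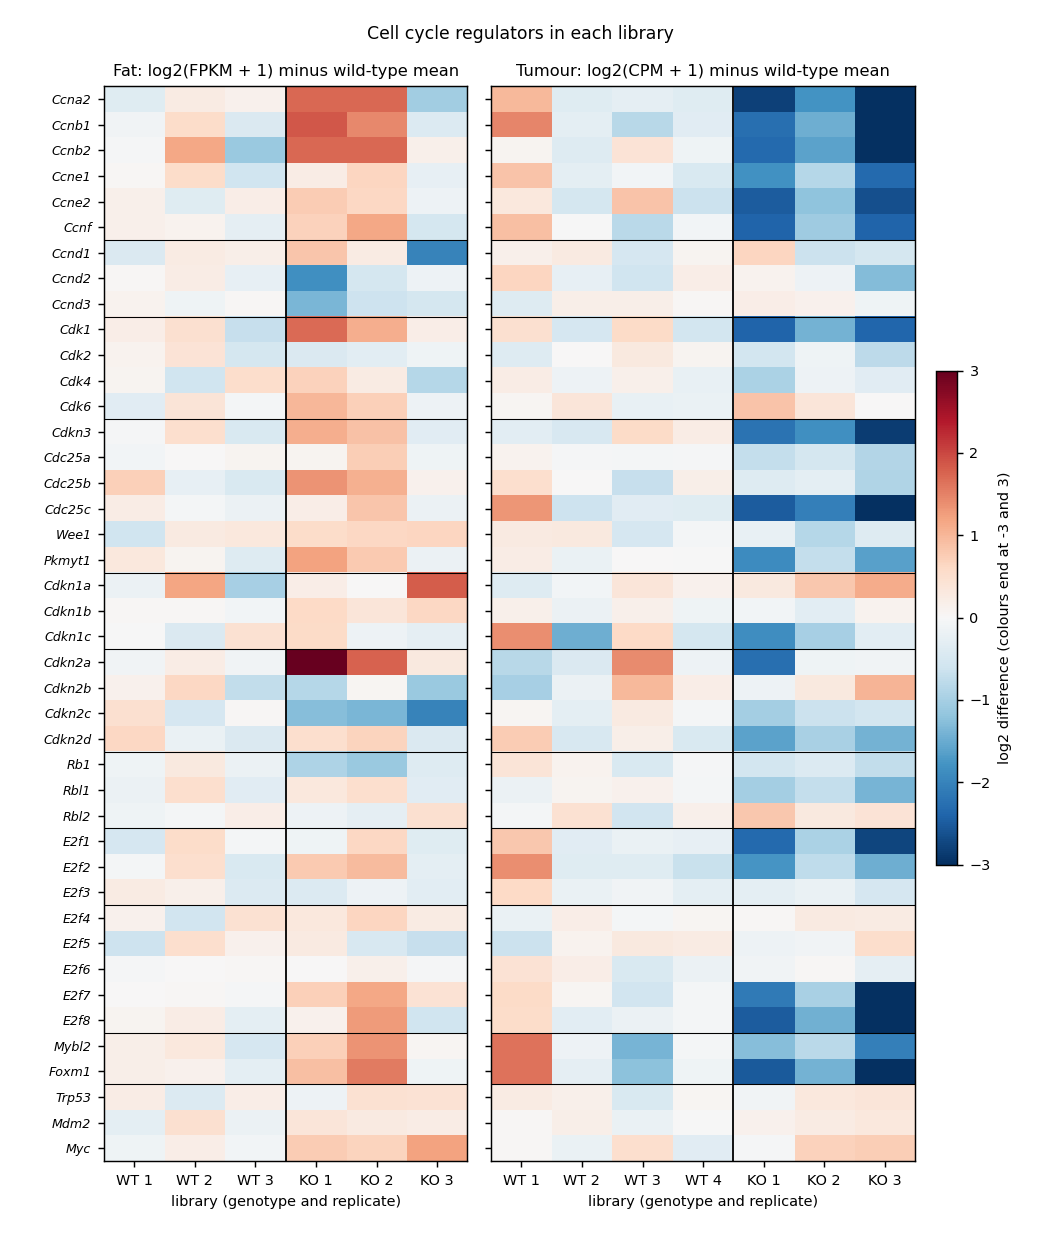
Log2 level of each of the 42 genes in each library minus the wild-type mean of that tissue (left: fat, log2(FPKM + 1), right: tumour, log2(CPM + 1), WT: wild type, KO: knockout, red: above, blue: below). Knockout fat 1 and 2 stand above wild type for most mitotic genes and knockout fat 3 does not. Knockout tumour 3 was the lowest tumour for 19 of the 42, and the share of all genes was not counted.

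The D-type cyclins respond to growth signals. Ccnd1 stood at 46.3, 50.4, 29.2 and 44.2 CPM in wild-type tumours and 65.2, 26.3 and 28.9 CPM in knockout tumours. Ccnd2 was at 42.8, 22.7, 17.4 and 31.5 CPM in wild-type tumours and 29.2, 24.2 and 10.4 CPM in knockout tumours. Both overlapped fully between groups (log2 fold change -0.09, SE 0.37 and -0.43, SE 0.44), and Ccnd3, at 44.99, 66.8, 66.5 and 60.2 CPM in wild-type tumours and 67.5, 64.95 and 53.8 CPM in knockout tumours, did as well (log2 fold change 0.06, SE 0.21). It was at 29.6, 25.03 and 28.2 FPKM in wild-type fat and 10.01, 17.5 and 18.9 FPKM in knockout fat, with every knockout library below every wild-type library (log2 fold change -0.84, SE 0.28, limma adjusted p = 0.249). Ccnd2 stood at 75.2, 84.8 and 61.2 FPKM in wild-type fat and 19.8, 50.4 and 65.5 FPKM in knockout fat. Ccnd1 was at 17.3, 28.7 and 27.2 FPKM in wild-type fat and 43.2, 28.5 and 5.22 FPKM in knockout fat. The Ccnd2 groups overlapped through knockout fat 3 (log2 fold change -0.84, SE 0.43), and Ccnd1 had its highest and lowest values in knockout fat (log2 fold change -0.30, SE 0.68). Ccnd2 stood at the 94.9 percentile of expressed genes in wild-type fat and at the 48.7 percentile, per kilobase, in wild-type tumours.

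The INK4 inhibitors block CDK4 and CDK6. Cdkn2c, p18, gave the smallest p of the 40 genes tested in fat. It stood at 243, 123 and 178 FPKM in wild-type fat and 71.5, 67.1 and 42.9 FPKM in knockout fat, and every knockout library lay below every wild-type library (log2 fold change -1.55, SE 0.34, limma adjusted p = 0.173). Without the libraries numbered 2 its log2 fold change was -1.89. In wild-type fat Cdkn2c stood at the 98.1 percentile of expressed genes. It was at 165, 129, 192 and 153 CPM in wild-type tumours and 77.3, 101 and 108 CPM in knockout tumours, again apart and lower in knockout (log2 fold change -0.74, SE 0.22), and it was the 1 gene of the 42 that was lower and apart in both tissues. Of all genes 11.3% were lower and apart in fat and 7.05% in tumours, and the share in both was not counted.

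Cdkn2a encodes p16 and, in another reading frame, the ARF protein that inhibits MDM2. It stood at 82.4, 109, 394 and 131 CPM in wild-type tumours and 29.8, 134 and 136 CPM in knockout tumours, with wild-type tumour 3 far above the rest and the groups overlapping (log2 fold change -0.84, SE 0.69). Per kilobase it stood at the 98.8 percentile of expressed genes in wild-type tumours and the 97.7 percentile in knockout tumours. It was at 0, 0.246 and 0 FPKM in wild-type fat and 7.59, 2.65 and 0.325 FPKM in knockout fat. Wild-type fat thus held almost none of it, at the 6.59 percentile, and all 3 knockout libraries lay above, knockout fat 3 by little (log2 fold change 1.69, SE 0.67, limma adjusted p = 0.303). The neuroendocrine marker Chga was also highest in knockout fat 1 and 2, and stood at 1.09, 0.664 and 0.954 FPKM in wild-type fat and 6.74, 50.6 and 0.377 FPKM in knockout fat. Its part in the Cdkn2a level was not tested, and Pbsn was at 0 in these libraries. Cdkn2d, p19, was lower in every knockout tumour, and ranged from 23.3 to 56.9 CPM and from 10.1 to 16.3 CPM, and Cdkn2b from 3.46 to 16.4 and from 6.96 to 16.9 CPM. In fat Cdkn2b ranged from 9.86 to 26.8 and from 7.43 to 17.9 FPKM, and Cdkn2d from 3.17 to 7.56 and from 3.16 to 7.87 FPKM.

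The CIP/KIP inhibitors bind CDK2 complexes. Cdkn1a, p21, is a p53 target, and in tumours it stood at 30.1, 37.2, 51.03 and 43.1 CPM in wild-type tumours and 48.4, 69.9 and 86.97 CPM in knockout tumours. Knockout tumour 1 lay within the wild-type range and the other two above it (log2 fold change 0.76, SE 0.27, edgeR adjusted p = 0.308). Cdkn1a was at 4.41, 12.9 and 2.08 FPKM in wild-type fat and 6.02, 5.22 and 20.6 FPKM in knockout fat, with no order by genotype (log2 fold change 0.68, SE 0.66). Cdkn1b, p27, stood at 25.99, 25.9 and 24.00 FPKM in wild-type fat and 38.6, 32.8 and 39.3 FPKM in knockout fat, a narrow and separate range in each group (log2 fold change 0.52, SE 0.20, limma adjusted p = 0.288). It was at 227, 179, 225 and 186 CPM in wild-type tumours and 191, 162 and 218 CPM in knockout tumours and overlapped (log2 fold change -0.10, SE 0.20). Cdkn1c, p57, stood at 109.5, 14.3, 62.9 and 28.3 CPM in wild-type tumours and 10.6, 20.2 and 32.7 CPM in knockout tumours, a range of several-fold within wild type (log2 fold change -1.34, SE 0.70). It was at 18.2, 13.2 and 25.3 FPKM in wild-type fat and 27.8, 16.4 and 14.98 FPKM in knockout fat (log2 fold change 0.05, SE 0.33).

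**Figure D4:**
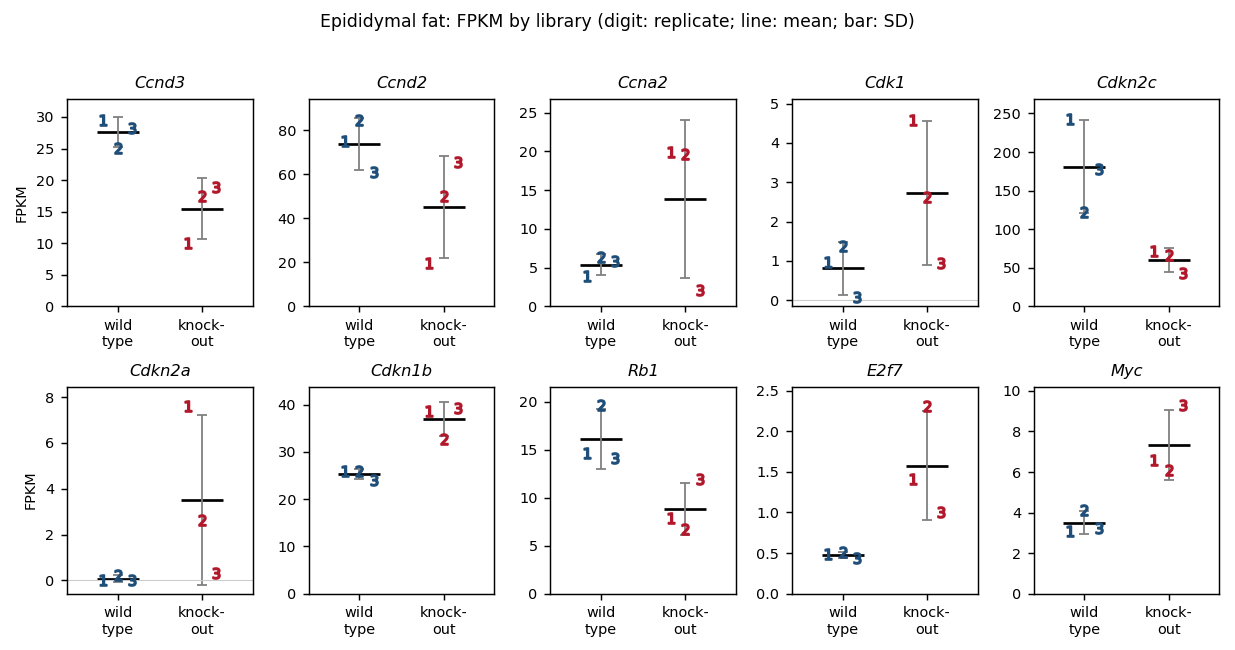
FPKM of 10 genes in each fat library (vertical axes start at or just below 0, digit: replicate number, line: mean, bar: SD, n = 3 per group). Ccnd3, Cdkn2c and Rb1 are lower and Cdkn2a, Cdkn1b, E2f7 and Myc higher in every knockout library, while Ccnd2, Ccna2 and Cdk1 overlap through knockout fat 3.

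Of the RB family, Rb1 stood at 14.6, 19.7 and 14.1 FPKM in wild-type fat and 7.88, 6.78 and 11.9 FPKM in knockout fat, and every knockout library lay below every wild-type library (log2 fold change -0.82, SE 0.27, limma adjusted p = 0.248). It was at 93.4, 77.4, 51.5 and 69.8 CPM in wild-type tumours and 48.6, 53.2 and 42.7 CPM in knockout tumours, and overlapped by little (log2 fold change -0.60, SE 0.24). Rbl1, which encodes p107, stood at 81.4, 98.6, 101 and 89.3 CPM in wild-type tumours and 44.7, 55.4 and 34.2 CPM in knockout tumours. Its groups were tight and apart (log2 fold change -1.05, SE 0.22, edgeR adjusted p = 0.193), and without both tumours numbered 2 the log2 fold change was -1.20. It was at 5.500, 9.48 and 4.84 FPKM in wild-type fat and 8.09, 9.39 and 4.83 FPKM in knockout fat and overlapped (log2 fold change 0.16, SE 0.33). Rbl2, p130, which holds resting cells, had a positive tumour fold change, at 51.7 to 106 CPM in wild type and 94.2 to 135 CPM in knockout (log2 fold change 0.48, SE 0.27), and in fat it ranged from 21.8 to 27.7 and from 20.0 to 34.2 FPKM.

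Among the activator E2Fs, E2f1 stood at 83.5, 36.9, 41.2 and 39.5 CPM in wild-type tumours and 8.57, 24.2 and 6.22 CPM in knockout tumours, lower in every knockout tumour (log2 fold change -1.95, SE 0.55). E2f2 ranged from 14.0 to 61.6 and from 6.00 to 13.1 CPM, also apart, and E2f3 from 29.6 to 56.2 and from 25.3 to 31.7 CPM. The repressors E2f4, E2f5 and E2f6 overlapped, with tumour log2 fold changes of 0.19, 0.08 and -0.16. The atypical repressors bind DNA without a DP partner and are themselves E2F targets. E2f8 stood at 52.3, 28.6, 31.1 and 34.4 CPM in wild-type tumours and 5.44, 12.4 and 2.12 CPM in knockout tumours. E2f7 was at 33.1, 22.9, 14.4 and 20.9 CPM in wild-type tumours and 4.23, 10.7 and 1.01 CPM in knockout tumours. Both were lower in every knockout tumour (log2 fold change -2.45, SE 0.59 and -2.10, SE 0.73).

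In fat E2f7 was at 0.487, 0.514 and 0.439 FPKM in wild-type fat and 1.41, 2.31 and 0.999 FPKM in knockout fat, so that every knockout library was higher (log2 fold change 0.77, SE 0.37, limma adjusted p = 0.373). The values correspond to 14, 17 and 13 reads in wild type and to 42, 190 and 25 in knockout, with fewer FPKM to a read in knockout fat 2. E2f7 was thus apart in both tissues in opposite directions, and the share of all genes that were so was not counted. It averaged 0.48 FPKM in wild-type fat and 1.57 FPKM in knockout fat, so it passed the fat filter only through knockout fat. E2f8 was not tested in fat, at 0.684, 0.868 and 0.306 FPKM in wild-type fat and 0.761, 2.89 and 0.0604 FPKM in knockout fat. E2f1 stood at 1.79, 4.801 and 2.76 FPKM in wild-type fat and 2.59, 5.09 and 2.05 FPKM in knockout fat and did not separate (log2 fold change 0.04, SE 0.39), and the fat log2 fold changes of E2f2 to E2f6 ran from -0.30 to 0.48.

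FOXM1 and MYBL2 switch on the genes of mitosis. Foxm1 stood at 131, 34.4, 16.99 and 37.5 CPM in wild-type tumours and 6.401, 14.9 and 3.05 CPM in knockout tumours. Mybl2 was at 35.4, 9.54, 3.47 and 10.3 CPM in wild-type tumours and 3.88, 5.69 and 1.86 CPM in knockout tumours. Foxm1 was apart between groups (log2 fold change -2.75, SE 0.83), and Mybl2 overlapped through wild-type tumour 3 (log2 fold change -1.94, SE 0.81). In fat Foxm1 was at 0.7495, 0.689 and 0.257 FPKM in wild-type fat and 1.91, 3.58 and 0.405 FPKM in knockout fat. Mybl2 was at 0.944, 1.14 and 0.203 FPKM in wild-type fat and 1.82, 3.34 and 0.783 FPKM in knockout fat. In both, knockout fat 1 and 2 lay above all wild-type fat, knockout fat 3 within its range, and limma adjusted p was 0.490 and 0.489.

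MDM2 is the ubiquitin ligase of p53 and a product of its target gene. Trp53, the gene of p53, stood at 68.2, 64.1, 41.7 and 60.2 CPM in wild-type tumours and 53.6, 72.5 and 73.9 CPM in knockout tumours. Mdm2 was at 88.2, 96.9, 74.1 and 84.6 CPM in wild-type tumours and 93.4, 102 and 106 CPM in knockout tumours. Both overlapped (log2 fold change 0.19, SE 0.23 and 0.23, SE 0.17). Trp53 was at 3.39, 1.83 and 3.29 FPKM in wild-type fat and 2.37, 4.15 and 4.06 FPKM in knockout fat. Mdm2 was at 21.8, 37.98 and 23.7 FPKM in wild-type fat and 34.7, 32.98 and 31.9 FPKM in knockout fat. Neither separated (log2 fold change 0.24, SE 0.31 and 0.29, SE 0.26). Myc, a growth transcription factor, stood at 3.09, 4.14 and 3.24 FPKM in wild-type fat and 6.62, 6.11 and 9.32 FPKM in knockout fat, with every knockout library above every wild-type library (log2 fold change 0.88, SE 0.25, limma adjusted p = 0.214). Without the libraries numbered 2 its log2 fold change was 1.09. It was at 45.6, 38.7, 63.1 and 35.2 CPM in wild-type tumours and 43.8, 72.7 and 74.7 CPM in knockout tumours and overlapped (log2 fold change 0.48, SE 0.28).

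Taking the 40 genes tested in fat, limma called 0, beside 0.00734% of all 13617 genes. At an unadjusted p under 0.05 the count was 6, or 15.0% of the 40, beside 15.0% of all genes: Myc, Cdkn1b and Cdkn2a higher, beside 6.88%, and Cdkn2c, Rb1 and Ccnd3 lower, beside 8.14%. The groups did not overlap for 5 genes with knockout higher (Cdkn1b, Cdkn2a, E2f7, Myc and Wee1), beside 9.87%, and for 3 with knockout lower, beside 11.3%. These shares lie near those of all genes. More of the 40 leaned upward, 31 against 50.5% of all genes, with a median log2 fold change of 0.35 against 0.01. Ccnb1, Ccnf, Cdk1, Cdkn2a, E2f7, Mybl2 and Foxm1 averaged under 1 FPKM in wild-type fat. They passed the filter of a mean of 1 FPKM only through knockout fat, so the filter partly set their upward direction. At a mean of at least 5 FPKM the median was 0.104 against 0.012 over all genes, and with no filter 0.287 against 0.024. Knockout fat 1 was the highest library for 12 of the 42 genes and knockout fat 2 for 15, and wild-type fat 3 was the lowest for 15. The like shares of all genes were not counted. Without knockout fat 3 the count at an unadjusted p was 16 of 41, beside 21.2% of all genes, and limma called 0, beside 0.0221%. Without both libraries numbered 2 the count at an unadjusted p was 4, and the share of all genes was not counted. The median was then 0.13 against 0.005 over all genes. Ccnf, E2f7, Mybl2 and Foxm1 were then too low to be tested, so this count and median cover fewer genes than the main fit. The log2 fold changes of Ccnd3, Rb1, Cdkn1b and Cdkn2a were -1.01, -0.52, 0.62 and 1.75.

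Summed markers of dividing cells stood at 16.1, 32.1 and 4.26 FPKM in wild-type fat and 99.1, 135 and 10.4 FPKM in knockout fat. Neuroendocrine markers stood at 8.703, 16.6 and 10.2 FPKM in wild-type fat and 35.9, 122 and 23.3 FPKM in knockout fat, and macrophage markers at 622, 1262 and 400.0 FPKM in wild-type fat and 2894, 1454 and 1307 FPKM in knockout fat. All 3 lists were higher in knockout fat 1 and 2 than in any wild-type library, and knockout fat 3 was above wild type for the neuroendocrine and macrophage lists only. Mature adipocyte markers overlapped in their sum, at 11193 to 14252 FPKM in wild type and 8570 to 13309 FPKM in knockout, of which Fabp4 alone made up 4755 to 8288 FPKM. Only Adipoq of these markers was lower in every knockout library, at 2896, 2078 and 2982 FPKM in wild-type fat and 1919, 1632 and 1823 FPKM in knockout fat. Plin1, Lep, Cidec, Pparg, Cebpa, Lipe and Fabp4 overlapped between the groups. Of all genes 11.3% were lower and apart in knockout fat. The part of all these marker lists in the fat values was not tested.

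The difference between the fat and tumour effects was tested in 1 limma fit of log2(FPKM + 1) and log2(CPM + 1). Of the 40 genes tested in both tissues, 0 passed at an adjusted p under 0.05, beside 0.0% of 12390 genes, and the smallest was 0.0745, for Cdk1 (difference of log2 fold changes 3.06, SE 0.64). At an unadjusted p under 0.05, 22 passed, beside 11.7%: 21 with the fat effect above the tumour effect, beside 5.79%, and 1 below, Ccnd3, beside 5.92%. In 31 of 40 the fat effect was the higher, beside 49.0% of all genes, and the median difference was 1.02 against -0.02. The same fat filter applied, which Ccnb1, Ccnf, Cdk1, Cdkn2a, E2f7, Mybl2 and Foxm1 passed only through knockout fat. The next smallest were Cdkn3 (2.85, limma adjusted p = 0.0781), Ccnb2 (3.73, limma adjusted p = 0.0813), E2f7 (2.97, limma adjusted p = 0.0903) and Ccne2 (2.52, limma adjusted p = 0.0945). Without knockout fat 3, limma called 7 genes, beside 1.78% of all: Ccna2, Ccnb1, Ccnb2, Cdk1, Cdkn3, E2f8 and Pkmyt1, with differences of 2.41 to 4.59. Of these, Ccnb1, Cdk1 and E2f8 passed the fat filter only through knockout fat. E2f8 passed it only through knockout fat 2, at 2.89 FPKM, where the other fat libraries in that fit held 0.306 to 0.868 FPKM. Without knockout tumour 2 limma called 1, E2f7 (3.58, limma adjusted p = 0.0411), beside 0.273%. Without both libraries numbered 2 it called 0, 12 passed at an unadjusted p, and the median difference was 0.79 against 0.002 over all genes. Ccnf, E2f7, Mybl2 and Foxm1 were not tested in that setting, and the share of all genes passing was not counted.

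Genes that work with these regulators were counted in the same fits, and none was called by limma or edgeR. Over all genes tested, 56.8% were lower in tumours, 12.4% passed at an unadjusted p and DESeq2 called 5.16%, and in fat 50.5% were higher and 15.0% passed at an unadjusted p. Of 26 E2F target genes of S phase (the MCM helicase, DNA polymerase and nucleotide synthesis genes), 26 were lower in tumours, 25 of them at an unadjusted p. In 22 every knockout tumour lay below every wild-type tumour, against 7.05% of all genes. The median log2 fold change was -1.49 against -0.08 over all genes. DESeq2 called 21. In fat 26 of 26 were higher, 11 at an unadjusted p, with a median of 0.97 against 0.01 over all genes. In 6 every knockout fat library lay above every wild-type library, against 9.87% of all genes. Cdc45, a subunit of the replication helicase, had a tumour log2 fold change of -1.99 (SE 0.44), and Tk1, thymidine kinase, a fat log2 fold change of 1.48 (SE 0.33). Of 28 p53 target genes, 20 were higher and 8 lower in tumours, with a median of 0.32, 6 at an unadjusted p and 2 called by DESeq2, the last a share near that of all genes. Trp53inp1, a stress protein, stood at 1.75 (SE 0.46) and Ckap2, which is also a mitotic spindle protein, at -2.01 (SE 0.33). In fat 15 were higher and 11 lower (median 0.06), with Gdf15, a secreted stress signal, at 2.11 (SE 0.49) and Phlda3, an inhibitor of AKT, at -1.83 (SE 0.41).

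Of 17 tested partners and turnover factors of the cyclins and CDKs, 13 were lower in tumours, against 56.8% of all genes. Of these factors 8 passed at an unadjusted p, against 12.4% of all genes, and DESeq2 called 4, against 5.16%. Among them Fbxo5, which restrains the anaphase-promoting complex, stood at -2.21 (SE 0.47) and Cdc20, which activates it, at -2.45 (SE 0.56). Of 8 E2F and DREAM partners 6 were lower and DESeq2 called 2, with Lin9, a DREAM subunit, at -1.09 (SE 0.30) and Tfdp1, the DP1 partner of E2Fs, at -0.81 (SE 0.24). Of 10 relatives and kinases of p53 7 were lower and DESeq2 called 3, with Chek1, the S phase checkpoint kinase, at -1.40 (SE 0.37). Of 10 partners and relatives of MYC 6 were lower, a share near that of all genes, and DESeq2 called 1. In fat these 4 lists had 9 of 16, 3 of 8, 1 of 9 and 3 of 8 genes higher, against 50.5% of all genes. In them 0, 1, 0 and 1 passed at an unadjusted p, against 15.0% of all genes.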

How the data were processed

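Per the labels, polyadenylated RNA went into a directional kit and was read as single ends of 75 bases. STAR, DESeq2 and mm10 appear in the submitters' processing notes, with no version. No source used here names the counter or gene models. The authors deposited raw counts for tumours. Their deposited adipose values name no unit, and were taken as FPKM from their size and their dependence on gene length. Of 1046 low genes, 87.1% fell on whole reads in every library within 0.05 reads, which gave the read numbers quoted. In R 4.3.3, edgeR 4.0.16 (quasi-likelihood, TMM, filterByExpr at 10 counts) tested the tumours, with DESeq2 1.42.0 as the alternative. Because edgeR reports no SE, the tumour SE is the absolute log2 fold change divided by the square root of the F statistic. Because the adipose table holds no counts, limma 3.58.1 (trend) was applied to log2(FPKM + 1) of genes averaging 1 FPKM or more. The difference of effects was tested the same way, with log2(CPM + 1) for tumours. Tests are two-sided across all genes, with Benjamini-Hochberg adjustment and calls at an adjusted p under 0.05, and the fits were checked on simulated data. Levels per kilobase used the union of exons in GENCODE M21, and percentiles are over genes above 0 in a group.

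The genes, the partner lists and the cell markers were chosen with earlier results of these data known. Library values are printed for the 10 genes with the smallest p in each tissue and for 18 core genes chosen by role; in each partner list at most the 2 genes with the smallest p in a tissue are named. Reads shared with other genes cannot be told apart without strand information on the counting: 18 of the 42 genes share exon bases with a gene of the opposite strand, 2 with a gene of the same strand, and Ccnd3, Ccnb1, Ccnb2 and Trp53 have a pseudogene of their name. Alternatives were DESeq2 size factors, no filter, a mean of at least 5 FPKM, a pseudocount of 0.1, a replicate block, and leaving out each library or both libraries numbered 2; DESeq2 without the libraries numbered 2 was added after seeing the data.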

Additional observations from a re-analysis of the deposited data

Results flagged for a closer look

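A single tumour lay far from the other 3 of wild type for 7 of the 42 genes, judged by the gap to its nearest neighbour as a share of the whole range, with the Dixon critical value for 4 samples, which chance passes in about 1 in 20 groups. The share of all tumour genes flagged by this rule was not counted, so the flags may not be particular to these 42. Wild-type tumour 1 was the high library for Ccna2 (share 0.958), Cdc25c (0.928), E2f2 (0.926), E2f1 (0.908), Ccnb1 (0.884) and E2f3 (0.831). Wild-type tumour 3 was the high library for Cdkn2a (0.843). E2f7 was higher in every knockout fat library and lower in every knockout tumour than in wild type. It passed the fat filter only through knockout fat, and the share of all genes apart in opposite directions was not counted. The log2 difference between the fat and tumour effects of E2f7 was 2.97 (limma adjusted p = 0.0903), so the difference was not called.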

How the results depend on the processing

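The tumour result depended on the tool: edgeR called 0 genes, with DESeq2 size factors as well, whereas DESeq2 called 780 genes and 17 of the 42, and 402 and 16 without both tumours numbered 2. In each tumour setting run with edgeR the median of the 42 stayed below 0, and leaving out single libraries gave medians of -0.80 to -0.67 and 18 to 25 genes at an unadjusted p. In fat all genes called numbered 1, 2 to 4 with a library left out and 5 without both libraries numbered 2, and 6 of the 40 at an unadjusted p became 3 (without knockout fat 1) to 16 (without knockout fat 3). For the difference of effects, leaving out a library gave 0 to 221 genes called, 0 to 7 of the 42, 14 to 23 at an unadjusted p and a median of 0.53 to 1.11, and 12 passed at an unadjusted p without both libraries numbered 2. Deviations from the group means were correlated between wild-type and knockout libraries. Same-number correlations were -0.055 to 0.155 in fat and 0.082 to 0.324 in tumours, and those of unlike numbers -0.28 to 0.181 and -0.195 to 0.08. Whether the replicate numbers mark pairs was not settled by so few libraries. A replicate block gave 3 genes called for the difference, 0 of the 42 in any comparison, and 9 in fat and 20 in tumours at an unadjusted p. The cause of these shifts was not tested. The share of all genes at an unadjusted p was counted only in the main fits and, for the fat comparison, without knockout fat 3. Genes near 0 changed sign when a library was left out: log2 fold changes ranged in fat Ccnd1 -0.87 to 0.54, Ccne1 -0.09 to 0.49, Cdk4 -0.30 to 0.47, Cdkn1c -0.21 to 0.28, Cdc25a -0.02 to 0.41, Rbl1 -0.01 to 0.41, Rbl2 -0.21 to 0.16, E2f1 -0.25 to 0.32, E2f6 -0.01 to 0.08; in tumours Ccnd1 -0.62 to 0.15, Ccnd3 -0.06 to 0.17, Cdkn1b -0.19 to 0.01, Cdkn2b -0.07 to 0.80, E2f5 -0.16 to 0.21, E2f6 -0.29 to 0.01; for the difference of effects Ccnd1 -0.70 to 0.72, Ccnd2 -0.83 to 0.11, Cdk2 -0.07 to 0.40, Cdk6 -0.13 to 0.45, Cdkn1a -0.63 to 0.53, E2f3 -0.16 to 0.16, E2f4 -0.07 to 0.44, Trp53 -0.16 to 0.25, Mdm2 -0.09 to 0.30. Others changed sign without both libraries numbered 2: in fat Cdk4 -0.38, Cdkn1c -0.07, Cdkn2d -0.05, Cdc25a -0.02, E2f4 -0.01, E2f5 0.05, E2f6 -0.01, Trp53 -0.07; in tumours Ccnd1 0.24; for the difference of effects Cdkn1a 0.92, Rb1 0.08, E2f4 -0.23, Trp53 -0.25; DESeq2 gave Ccnd1 0.23 there. With a pseudocount of 0.1 the difference of effects was Cdk6 -0.13, Cdkn1a 0.05, E2f3 -0.02. Depth limits the low fat values: Ccnb1, Ccnb2 and Cdk1 rest on 0 to 32 reads per wild-type library.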
